A study of Drosophila melanogaster with 2 samples.

Results

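The ecdysone cascade was examined in the Lola binding profile of S2 cells, a line derived from *Drosophila* embryos. The genes were *ftz-f1*, *Hr39*, *EcR*, *usp*, *Eip75B*, *Eip78C*, *Eip74EF* and *br*. A peak was counted at a gene if the deposited list named that gene for it, or if it overlapped the gene or the 3 kb on either side of one of its transcription start sites (TSSs) in release 6 of the genome. By this rule 12 of the 939 deposited peaks were found at 5 of the 8 genes, namely 4 at *Eip75B*, 3 each at *ftz-f1* and *Eip74EF*, and 1 each at *Eip78C* and *Hr39*. The deposited assignment and the annotation gave the same 12 peaks, and all 12 overlapped the gene itself. *EcR*, *usp* and *br* had no peak. By the same rule, 6.59% of all protein-coding genes (920 of 13968) had a peak. The genes were chosen by their peaks, so these counts describe the choice and were not tested.

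The series comprises a ChIP library and a library of input DNA, 1 of each, both from S2 cells, and the peak list made for the ChIP was analysed here. The cells were grown in serum-containing medium, and the growth protocol names no ecdysone treatment. Lola is the precipitated protein by the sample's title and protocol, whereas its antibody label reads H3K4me2, a histone mark found around promoters, and the files do not settle which entry is right. With 1 ChIP library there is no replicate error for any value, and the read depth behind a peak is unknown.

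Ecdysone is the steroid hormone that times molting and metamorphosis in insects. It binds a receptor made of EcR and Usp, and the bound receptor switches on a small set of early genes, which encode transcription factors that in turn act on many later genes. *br* encodes zinc finger proteins, *Eip74EF* encodes ETS-domain proteins, and *Eip75B* and *Eip78C* encode nuclear receptors. *ftz-f1* encodes a nuclear receptor that acts as a partner of Ftz in the embryo and as a competence factor before pupation, and it is read from alternative promoters. *Hr39* encodes a nuclear receptor closely related to Ftz-f1. Lola is itself a family of BTB-domain proteins, most of whose isoforms carry zinc fingers.

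The 5 strongest peaks at these genes, those among the 50 highest ranks, are shown as sequence, because each carries 2 or more copies of 1 short word. Each line is the 100 bp around the summit, the position of the highest signal in a peak, read 5' to 3' along the strand of the gene from the release 6 reference. Capitals mark AAAGCT or its reverse complement AGCTTT, and capitals that run over 8 bases are copies on opposite strands that overlap each other. None of these windows touches an annotated untranslated region. The only windows of *Eip78C* and *Hr39*, both weaker peaks, are shown beside them as examples with a single copy and without the word.
ftz-f1 summit of rank 8, chr3L:18801484-18801583, minus strand: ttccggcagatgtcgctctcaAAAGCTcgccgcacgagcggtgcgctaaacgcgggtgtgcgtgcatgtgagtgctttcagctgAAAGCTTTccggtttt
ftz-f1 summit of rank 50, chr3L:18791376-18791475, minus strand: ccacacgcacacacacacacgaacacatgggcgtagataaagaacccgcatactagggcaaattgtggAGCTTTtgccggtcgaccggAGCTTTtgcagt
Eip75B summit of rank 16, chr3L:18019757-18019856, minus strand: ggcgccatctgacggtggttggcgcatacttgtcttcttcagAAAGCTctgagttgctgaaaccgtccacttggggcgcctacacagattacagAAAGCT
Eip75B summit of rank 40, chr3L:18026128-18026227, minus strand: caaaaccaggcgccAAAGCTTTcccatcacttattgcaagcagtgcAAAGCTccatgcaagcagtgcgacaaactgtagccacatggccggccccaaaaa
Eip74EF summit of rank 17, chr3L:17596943-17597042, minus strand: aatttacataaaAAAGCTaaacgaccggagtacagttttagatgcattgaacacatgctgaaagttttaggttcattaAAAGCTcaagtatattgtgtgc
Eip78C summit of rank 402, chr3L:21240030-21240129, plus strand: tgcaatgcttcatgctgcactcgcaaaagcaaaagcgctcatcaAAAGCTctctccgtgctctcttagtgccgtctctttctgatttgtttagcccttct
Hr39 summit of rank 842, chr2L:21237472-21237571, plus strand: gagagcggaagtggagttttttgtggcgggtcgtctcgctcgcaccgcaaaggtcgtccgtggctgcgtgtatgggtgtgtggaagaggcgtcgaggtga

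The *ftz-f1* gene (FBgn0001078) lies on the minus strand of chromosome 3L from 18750607 to 18801309 and has 4 annotated transcripts that start at 3 places. The strongest of its peaks, and of all peaks at the cascade genes, lay at the promoter farthest upstream, that of the long transcript *ftz-f1*-RB. This peak ran from 18801194 to 18801725 and was enriched 8.88-fold with a −log10 p of 141.8, which placed it at rank 8 of 939 by −log10 p and at rank 2 by fold enrichment. The TSS of *ftz-f1*-RB at 18801309 lay inside the peak, and the summit at 18801534 was 225 bp upstream of it. The other promoters, of *ftz-f1*-RC and *ftz-f1*-RD at 18765744 and of *ftz-f1*-RA at 18764956, had no peak nearby. The closest peak to them was more than 20 kb away, past the 3' end of the gene, and was assigned to *CG6885* (gaps of 21.7 and 20.9 kb).

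A further pair of peaks lay in the upstream part of *ftz-f1*. The peak from 18800078 to 18800905 was 828 bp wide, the widest at these genes, and had an enrichment of 3.03-fold (rank 247, −log10 p 17.6). Its summit lay 1007 bp downstream of the *ftz-f1*-RB TSS, in the 5'UTR within exon 1. The peak from 18791110 to 18791744 lay in intron 2 of *ftz-f1*-RB, 9883 bp downstream of the TSS, with an enrichment of 6.03-fold (rank 50, −log10 p 70.6). All 3 summits therefore lay within 9.9 kb of the upstream TSS, in a gene 50.7 kb long. All 3 also overlapped the non-coding gene *lncRNA:CR45939* (FBgn0267601), which lies on the same strand from 18772086 to 18801312. Its TSS is 3 bp upstream of that of *ftz-f1*-RB, so the summit of rank 8 was 222 bp upstream of it, and peaks at this place cannot be told apart between the coding and the non-coding transcript. The summit of rank 247 lay in exon 1 of the lncRNA and that of rank 50 in its intron 2.

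*Hr39* (FBgn0261239), the close relative of *ftz-f1*, lies on the plus strand of chromosome 2L from 21237250 to 21259675, and its 4 transcripts share 1 TSS. Its peak was the weakest at the cascade genes, with an enrichment of 1.81-fold (rank 842, −log10 p 5.7). It ran from 21237182 to 21237626 and contained the TSS, and its summit lay 272 bp downstream in intron 1. Both related receptor genes thus had a peak over a TSS, at opposite ends of the list. The TSS of *CG31626* on the other strand was 789 bp from this summit, and that of *mir-9374* was 779 bp from it.

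*Eip75B* (FBgn0000568), which encodes a heme-binding nuclear receptor, lies on the minus strand of chromosome 3L from 17950953 to 18064696. It is the longest of these genes, at 113.7 kb, and its 7 transcripts each have a TSS of their own. The strongest of its 4 peaks, from 18019620 to 18019980, had an enrichment of 7.88-fold (rank 16, −log10 p 118.9), and lay 6225 bp downstream of the nearest TSS, that of *Eip75B*-RG. It was in intron 1 of that transcript and in intron 3 of the longest one, *Eip75B*-RF. The peak from 18025990 to 18026330 lay over the *Eip75B*-RG promoter itself, 146 bp upstream of its TSS at 18026032 by the summit, with an enrichment of 6.26-fold (rank 40, −log10 p 75.4). The pair of strong peaks was thus 6.4 kb apart, summit to summit, with 1 at the *Eip75B*-RG promoter and the other downstream of it. This promoter lies 38664 bp from the first TSS of the gene.

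The other *Eip75B* peaks lay near its downstream promoters. The peak from 17962210 to 17962580 had an enrichment of 3.62-fold (rank 97, −log10 p 41.2), and its summit was 592 bp upstream of the TSS of *Eip75B*-RD. The peak from 17971196 to 17971395 was the narrowest, at 200 bp, with an enrichment of 1.99-fold (rank 643, −log10 p 7.7), and its summit lay 152 bp downstream of the TSS of *Eip75B*-RA, in its 5'UTR. No peak lay within 1000 bp of the TSSs of *Eip75B*-RF, *Eip75B*-RE, *Eip75B*-RB and *Eip75B*-RC, for which the nearest peak was 38.4, 35.1, 33.3 and 19.8 kb away. The 3 upstream promoters of *Eip75B* were therefore without a peak, unlike the upstream promoter of *ftz-f1*.

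*Eip74EF* (FBgn0000567) lies on the minus strand of chromosome 3L from 17558672 to 17619325 and has 5 transcripts that start at 3 places. Its strongest peak, from 17596814 to 17597212, had an enrichment of 8.11-fold (rank 17, −log10 p 118.2), close to the values of the strongest *Eip75B* peak. It lay in intron 5 of the long transcripts (*Eip74EF*-RA, *Eip74EF*-RC and *Eip74EF*-RE), 20367 bp upstream of the nearest TSS, and was the peak farthest from any promoter of its own gene. The peak from 17603768 to 17604081 lay in intron 1 of the same transcripts, 15425 bp downstream of their TSS, with an enrichment of 2.90-fold (rank 226, −log10 p 20.0). The promoter of the short transcript *Eip74EF*-RB had a weak peak between 17576683 and 17576913. Its summit was 202 bp upstream of the TSS at 17576626, and it had an enrichment of 1.97-fold (rank 799, −log10 p 6.1). A further peak, assigned to *CycT*, lay 1172 bp past the 3' end of *Eip74EF*. It did not meet the rule and was the nearest of the peaks left out.

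*Eip78C* (FBgn0004865) lies on the plus strand of chromosome 3L from 21226609 to 21266503. Its 1 peak, from 21239957 to 21240427, had an enrichment of 2.36-fold (rank 402, −log10 p 11.4). It contained the TSS of the shorter transcript *Eip78C*-RB at 21240347, and its summit lay 267 bp upstream of that TSS, inside an intron of the longer transcripts. Both upstream promoters of *Eip78C*, at 21226609 and 21226919, were 13.3 and 13.0 kb from it.

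**Figure D1:**
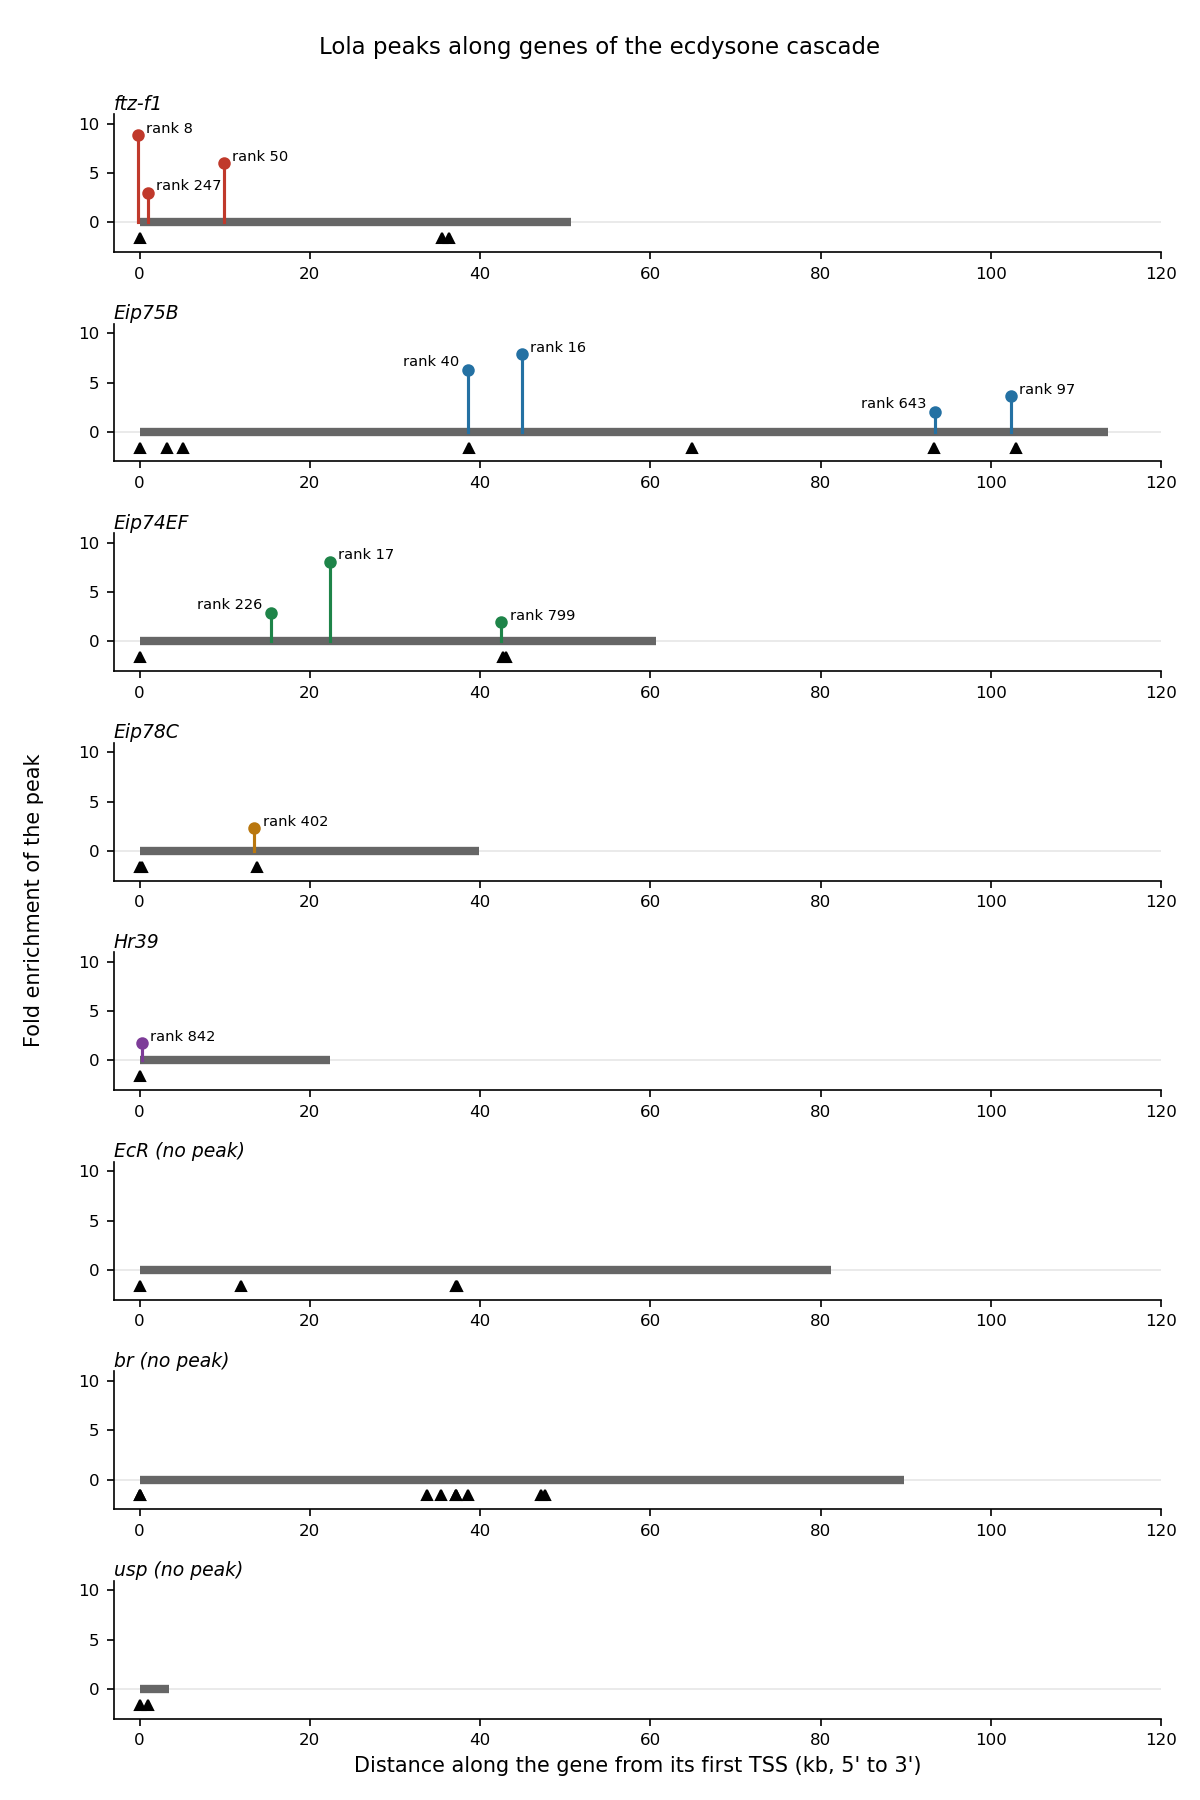
Lola peaks along the 8 genes. Each panel shows a gene as a grey bar from its first TSS (0 kb) to its end, triangles mark annotated TSSs, and each stem marks a peak summit with its fold enrichment on the y axis and its rank by −log10 p. The *ftz-f1* peaks gather within 9.9 kb of the upstream TSS, whereas those of *Eip75B* and *Eip74EF* lie in the interior of the gene.

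The genes of the hormone receptor itself had no peak. *EcR* (FBgn0000546, chromosome 2R from 6087873 to 6169087) has 4 TSSs, and the nearest peak to the gene, assigned to *Act42A*, was 71.7 kb away. *usp* (FBgn0003964, chromosome X from 2038798 to 2042311) has 2 TSSs, and the nearest peak, assigned to *D2hgdh*, was 99.0 kb away. *br* (FBgn0283451, chromosome X from 1575132 to 1664869), the early gene with the most TSSs (9), had no peak in its 89.7 kb. The nearest, with a fold enrichment of 3.05 and rank 244, lay 14.8 kb upstream of its first TSS, outside the limit of 3 kb. The absence of a peak says only that no region passed the threshold of the deposited list, in which the lowest −log10 p was 3.61. Of the 32 TSSs of the 8 genes, 8 had a peak within 1000 bp. By the rule, these could only be among the 17 TSSs of the 5 genes with peaks. The TSSs of *Eip74EF*-RB and *Eip74EF*-RD shared the peak of rank 799. The share of all protein-coding TSSs with a peak within 1000 bp was not computed, so this count is a description only.

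The share of genes with a peak was read by gene length. Of the 5 cascade genes of 50 kb or longer, *ftz-f1*, *Eip75B* and *Eip74EF* had a peak, against 24.9% of all protein-coding genes of that length (78 of 313). These 3 genes each had 3 or more peaks, against 6.07% of that length class (19 of 313) and 1.15% of genes of any length. Both cascade genes of 20 to 50 kb, *Eip78C* and *Hr39*, had a peak, against 11.9% of that class (84 of 707). *usp*, at 3.5 kb, had none, against 5.36% with a peak under 5 kb (562 of 10476). No cascade gene was 5 to 20 kb long, a class in which 7.93% had a peak. The number of peaks per gene set the cascade genes beside few other genes. Only 11 of the 13968 protein-coding genes (0.0788%) had 3 or more single-copy peaks, and *ftz-f1*, *Eip75B* and *Eip74EF* were 3 of these 11. The cascade genes were chosen by their peaks, so this count describes the choice. With peaks under 1000 bp apart counted as 1, *ftz-f1* had 2, and with a minimum of 2 for fold enrichment or of 10 for −log10 p, *Eip74EF* had 2, so each then fell short of 3, while *Eip75B* kept 3 or more under each of these alternatives. The set of 11 was not recomputed under them. A peak was called single-copy where under 50% of its 31-base words occurred again in the genome, and none of the words of the 12 peaks did. The others of the 11 genes were *ap*, *CG5697*, *Calx*, *Dhc93AB*, *IA-2*, *Mvl*, *cnc* and *jim*. Of these, *CG5697* and *Calx* had the same best peak (rank 514), so the 11 genes are not all separate places. *Eip75B*, with 4 single-copy peaks, came after *ap*, with 5. The best peak of these other genes was that of *cnc*, at rank 91, whereas each of the 3 cascade genes had one among the 50 highest. A peak among the 50 highest by −log10 p was found at the same 3 cascade genes and at 0.336% of all protein-coding genes (47 of 13968).

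**Figure D2:**
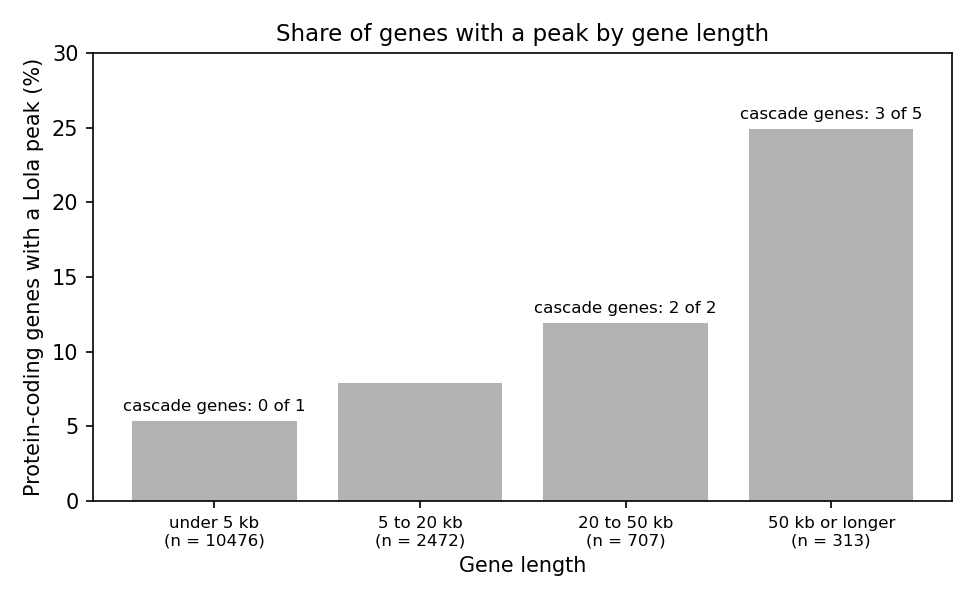
Share of protein-coding genes with a Lola peak (y axis, %) in 4 classes of gene length, with the number of genes in each class and, above the bars, how many of the cascade genes in it had a peak. The share runs from 5.36% under 5 kb to 24.9% at 50 kb or longer.

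The peaks at the cascade genes spanned nearly the whole range of the list. Their median fold enrichment was 3.33 (range 1.81 to 8.88, 12 peaks), against 2.75 (1.36 to 10.07) for the 504 other single-copy peaks and 1.96 for all 939. Of the 12 peaks, 5 were among the 50 highest by −log10 p, which hold 5.33% of all peaks and 6.75% of the other single-copy peaks (34 of 504). The *ftz-f1* peak of rank 50 was tied with those of ranks 51 and 52. Its place among the 50 highest thus rests on the order of the list. Their median width was 385 bp, against 285 bp in the other single-copy peaks. Within a gene the peaks differed strongly, the strongest having 4.12 times the fold enrichment of the weakest at *Eip74EF*, 3.96 times at *Eip75B* and 2.93 times at *ftz-f1*. These values come from 1 library, at genes chosen by their peaks, and were not tested.

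**Figure D3:**
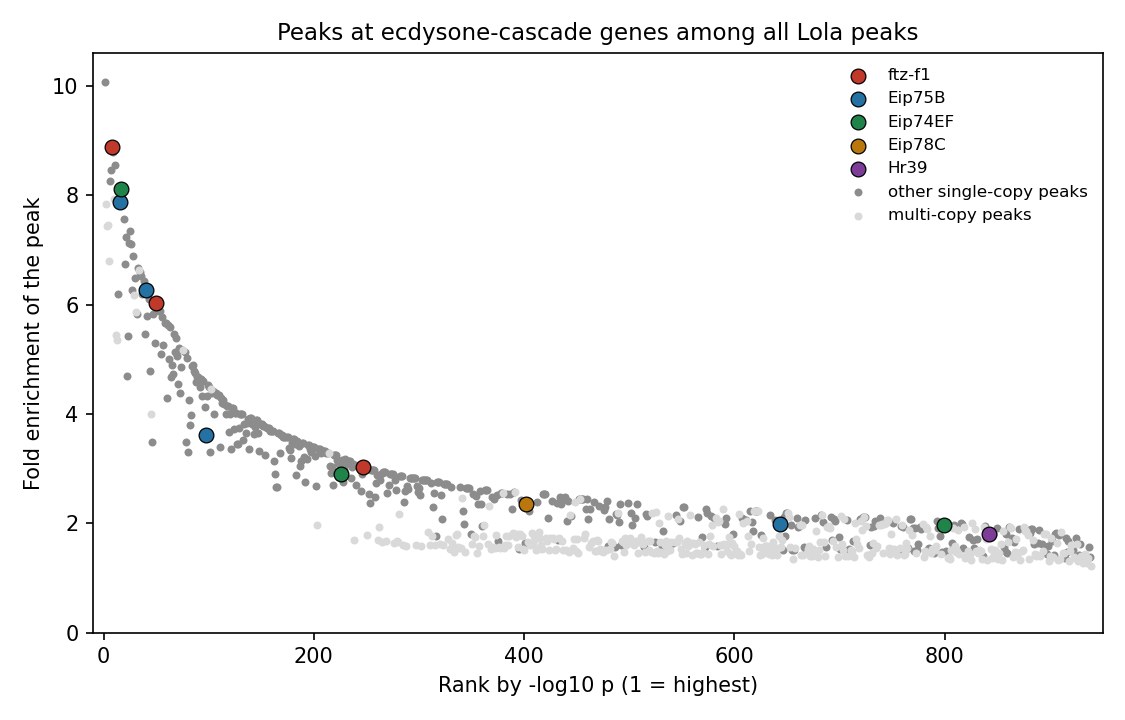
Fold enrichment (y axis) of each of the 939 peaks against its rank by −log10 p (x axis). Coloured points are the 12 peaks at cascade genes, dark grey points the other single-copy peaks and light grey points the multi-copy peaks, and 5 of the coloured points lie among the 50 highest ranks.

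Strong peaks lay both at promoters and away from them. The summits of 7 of the 12 peaks were within 1000 bp of a TSS of their gene, 5 of them upstream (146 to 592 bp) and 2 downstream (152 and 272 bp). Their median fold enrichment was 2.36 (1.81 to 8.88). The summits of the other 5 were 1007 to 20367 bp away, and their median was 6.03 (2.90 to 8.11). The closest of these, the *ftz-f1* peak of rank 247, was classed as a promoter peak in the deposited list. Both groups and their medians thus depend on where the limit is set. Among the 504 other single-copy peaks, those within 1000 bp of a TSS of any gene had a median of 2.79 (327 peaks) and those farther away a median of 2.40 (177 peaks). The ranges at the cascade genes overlapped over most of their length, and with 7 and 5 peaks from 1 library no difference was tested.

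The word AAAGCT, chosen from earlier results of these data, was read on both strands in the 100 bp around each summit. It was found in 8 of the 12 windows (66.7%, 95% Wilson interval 39.1 to 86.2%), against 48.6% of the other single-copy peaks (245 of 504, 44.3 to 53.0%) and 28.9% of all peaks. Windows of the same length centred on 19275 TSSs of protein-coding genes held it in 7.26%. Of the single-copy peaks among the 50 highest ranks, which include 5 of the 12, 76.9% held it (30 of 39). The interval of the 12 windows includes both this share and that of the other single-copy peaks. It takes the windows as independent, though they lie in only 5 genes, so it is a description and not a test. Of the 12 windows, 7 held 2 or more copies (58.3%), against 31.5% of the other single-copy windows (159 of 504).

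The presence of the word followed the strength of the peaks. Because the word was chosen from earlier results of these same peaks, this order is a description only and was not tested. All 6 cascade peaks among the 100 highest ranks held it, among them the *ftz-f1*, *Eip75B* and *Eip74EF* windows printed above, and the 3 below rank 500 did not. Of the other single-copy peaks, 65 of the 82 among the 100 highest held it and 17 of the 150 below rank 500 did. The 8 peaks with the word had a median fold enrichment of 6.15 (2.36 to 8.88), and the 4 without it had 1.98 (1.81 to 3.03). The other single-copy peaks were ordered the same way, with medians of 3.32 (245 peaks) and 2.10 (259 peaks). In the *ftz-f1* promoter peak of rank 8 the copies were centred 26 bp upstream and 38 and 40 bp downstream of the summit, in the direction of the gene, and the last pair overlap. The *Eip75B* promoter peak of rank 40 had a copy centred at its summit, and the *Eip75B* intron peak of rank 16 and the *Eip78C* peak each had one centred 4 bp upstream. Of the 4 peaks with no copy in the window, *ftz-f1* of rank 247 had its closest copy 146 bp upstream of the summit, *Hr39* had 1 at 102 bp downstream, and the *Eip75B* peak of rank 643 and the *Eip74EF* peak of rank 799 had none along their whole width.

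**Figure D4:**
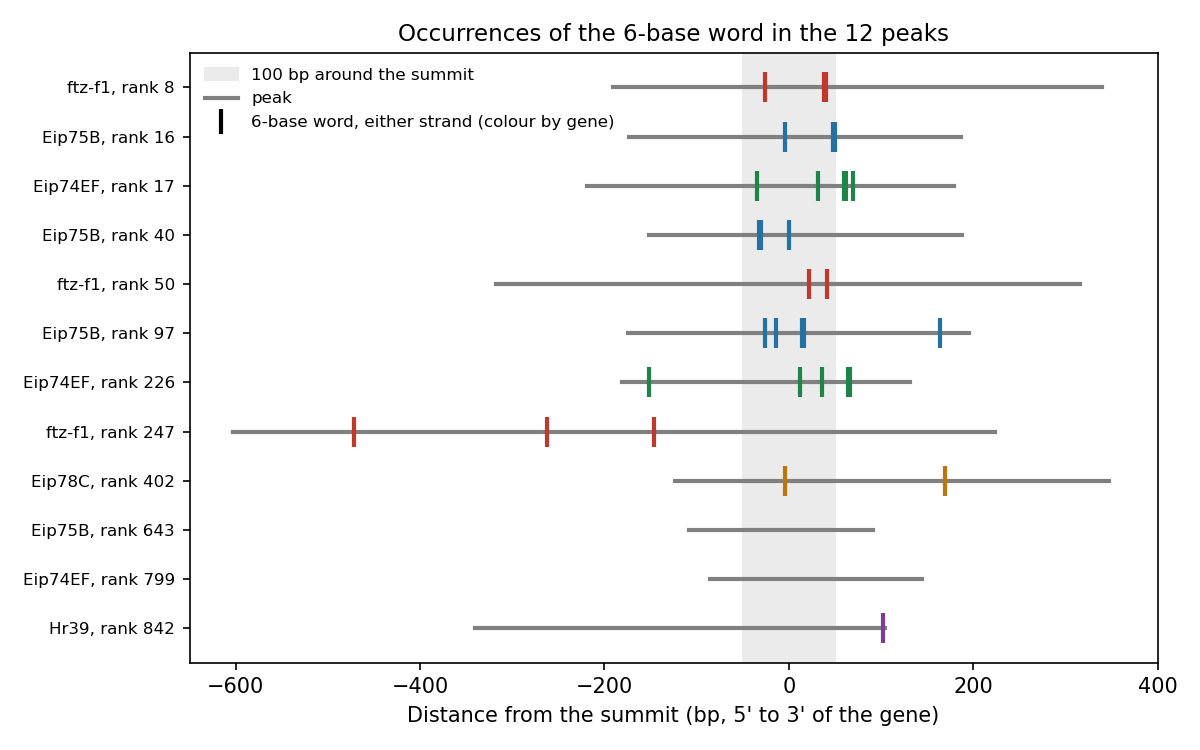
Occurrences of the 6-base word, on either strand, in the 12 peaks at cascade genes. The x axis gives the distance from the summit in bp, 5' to 3' along the gene, grey lines are the peaks in order of rank, coloured ticks are the word and the shaded band is the 100 bp around the summit. The 6 uppermost peaks have 2 to 4 copies inside the band.

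Most copies of the word in these genes lay outside peaks. The 8 genes, with 3 kb around their TSSs, hold 368 copies in 486.3 kb, a density of 0.757 per kb, and 32 of them (8.70%) lay in the 12 peaks, whose density was 6.24 per kb. *EcR* holds 79 copies, with 13 pairs of neighbours within 100 bp of each other, and had no peak. *br* holds 40 copies and *usp* 5, and *br* has the word within the 100 bp around 3 of its 9 TSSs. Copies of the word were thus also found where no peak was called. Overlapping copies on opposite strands were counted separately. The density over the rest of the genome was not set beside these values. Because the word was chosen from earlier results of these peaks, its higher density in them was not tested.

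Words tied to the cascade itself were also searched on both strands. The nuclear receptor word AAGGTCA was in none of the 12 windows (95% Wilson upper limit 24.2%), in 4 of all 939 (0.426%) and in 0.545% of the TSS windows. The longer site TCAAGGTCA, known to be bound by Ftz-f1, was in no peak window and in 7 TSS windows, and the perfect inverted repeat of AGGTCA around 1 base, the ideal ecdysone response element, was in no window of either kind. No match says only that these letters were not in these windows. The word GAGAG, bound by GAGA factor, was in 6 of the 12 windows (interval 25.4 to 74.6%), against 22.4% of the other single-copy windows (113 of 504, 19.0 to 26.3%) and 12.5% of the TSS windows. Of the single-copy peaks among the 50 highest ranks, 15.4% held it (6 of 39). Over whole peaks, with overlapping copies included and width not adjusted for, copies were most numerous in weaker peaks. The *ftz-f1* peak of rank 247 had 11 in its 828 bp, with 1 in its window. The *Eip74EF* peak of rank 799 had 6, with 0 in its window. The *Eip78C* peak had 5, the *Eip75B* peak of rank 643 had 4, and that of *Hr39*, the weakest, had 3.

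A wider list of 60 genes around the hormone was read by the same rule. Of these, 7 (11.7%) had a peak, against the 6.59% of all protein-coding genes, and each had only 1. These shares were not matched for gene length. Over all protein-coding genes the share rose from 5.36% under 5 kb to 24.9% at 50 kb or longer, and the difference was not tested. In hormone synthesis, uptake and breakdown 3 of 11 genes were linked to a peak. That of *shd*, which makes the active hormone, lay just past the 3' end of the gene and was assigned to *CG9628* (fold enrichment 2.87, rank 283). That of *sro*, an enzyme of the pathway, overlapped *kay*, with its summit 3077 bp upstream of the *sro* TSS (1.75, rank 569). That of *spok*, another synthesis enzyme, rested on the deposited assignment alone, and its summit was 63340 bp from the TSS (1.87, rank 878). None of the 3 peaks overlapped the gene it was linked to. *nvd*, *spo*, *phm*, *dib*, *sad*, *Cyp18a1*, *Oatp74D* and *E23* had none.

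Of 25 other ecdysone-response genes, *Sgs4*, a salivary gland glue gene, was linked to a peak inside *dnc*, with its summit 2733 bp downstream of the *Sgs4* TSS (fold enrichment 4.37, rank 107). The 24 without a peak were *Eip93F*, *Hr3*, *Hr4*, *Eip63E*, *Eip63F-1*, *Eip71CD*, *Eip55E*, *ImpL1*, *ImpL2*, *ImpL3*, *ImpE1*, *ImpE2*, *ImpE3*, *crol*, *rpr*, *hid*, *Dronc*, *Blimp-1*, *vri*, *Kr-h1*, *Edg78E*, *Edg84A*, *Edg91* and *Sgs3*. Peaks at response genes were thus found at *Eip75B*, *Eip74EF* and *Eip78C* and at *ftz-f1*, but not at *Hr3*, *Hr4* or *Eip93F*, which encode transcription factors of the same cascade. Of 13 other nuclear receptor genes, *Hnf4*, a regulator of lipid metabolism, had a peak with its summit 7 bp upstream of a TSS (3.20, rank 178), and *Hr38*, *Hr78*, *Hr51*, *Hr83*, *Hr96*, *svp*, *tll*, *dsf*, *ERR*, *knrl*, *kni* and *eg* had none.

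Of 11 cofactor genes, *Smr*, which encodes a corepressor that binds EcR, had an intron peak (3.22, rank 201), assigned to *CG15725*, and the chaperone gene *Hsp83* had a promoter peak 53 bp upstream of a TSS (1.98, rank 343). *tai*, *Alien*, *trr*, *rig*, *E(bx)*, *Fkbp39*, *ftz*, *Met* and *gce* had none. All 7 peaks of the wider list were single-copy, and none of them reached the ranks of the strongest *ftz-f1*, *Eip75B* and *Eip74EF* peaks.

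*Eip74EF*, *Eip75B* and *ftz-f1* lie in the same part of chromosome 3L, though not next to each other. The 1.24 Mb from *Eip74EF* to *ftz-f1* held 20 peaks, a density of 16.1 per Mb, against 8.29 per Mb over the whole arm (233 peaks in 28.1 Mb), and 10 of the 20 were the peaks of these 3 genes. The cell death gene *hid*, also a response gene, lies between *Eip75B* and *ftz-f1* and had no peak. The region was bounded by the genes chosen and its count includes their peaks, so its density reflects that choice and is a description only.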

How the data were processed

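Chromatin of S2 cells was cross-linked, sheared to about 200 bp and precipitated, and 1 ChIP library and 1 input library were sequenced. The submitters' processing notes name Bowtie2, SAMtools, MACS2 and ChIPseeker and the build BDGP6, without versions or settings. The authors deposited a peak list with a fold enrichment (a ratio whose base is not stated), 2 columns headed −log10 p, of which the first was used here, and positions, widths and summit offsets in bp. These other position values of the deposited list were used as given, 1-based. The input library was not used here.

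Positions were compared with Ensembl release 115: 927 assigned transcripts were found there, 924 at the same position, and so were those of all 12 peaks described. Sequences came from the RefSeq copy of release 6. Transposable elements were left out of gene counts. Summits were the start plus the offset. Ranks follow −log10 p, with ties in the order of the list, and copies were counted over 31-base words on both strands. Wilson intervals cover counting error only and take the windows as independent. No test across samples was possible with 1 ChIP library.

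The genes, the wider list and the word were chosen with earlier results of these data known. Every one of the 8 genes and each gene of the wider list is named, with its peaks or as without one, as is any gene that overlaps one of the 12 peaks or has a TSS within 3 kb of it. *phm*, *Eip71CD*, *Eip55E*, *ImpL3* and *Alien* are *phtm*, *MsrA*, *Cth*, *Ldh* and *alien* in the annotation. Alternatives were the reach around a TSS, whole-peak overlap, the source of the assignment, stricter thresholds, merging, single-copy peaks and the word window. The peak linking and word search were tested on simulated data. Python 3.11.15, numpy 2.4.6, pandas 2.3.3 and matplotlib 3.10.9 were used.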

Additional observations from a re-analysis of the deposited data

How the results depend on the processing

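The number of peaks at the cascade genes (12) and of genes with a peak (5) did not change with 1 or 10 kb around each TSS, with whole peaks inside the gene or its TSS reach, with either source of the assignment alone, or with single-copy peaks only. They were 9 and 4 where fold enrichment had to reach 2 or −log10 p had to reach 10, which left out the peak of *Hr39*, the *Eip74EF* peak of rank 799 and the *Eip75B* peak of rank 643. With peaks under 1000 bp apart counted as 1, there were 11. The median fold enrichment was 6.03 under both thresholds, which remove weak peaks by construction, and 3.62 after merging. The number of genes of the wider list with a peak was 4 where fold enrichment had to reach 2 and 4 by the deposited assignment alone, and 5 to 10 under the other alternatives. The word was found in 8 peaks with a window of 200 bp and in 10 over whole peaks. No paired analysis was possible because the series has 1 ChIP library. Read depth is unknown, so a weak peak and a missing one cannot be separated by their precision.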
